A study of Homo sapiens with 4 samples.

Results

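The 7 cholesterol synthesis enzymes HMGCS1, MVK, IDI1, FDPS, SQLE, LSS and DHCR7 were followed through a table of exon skipping. The 7 genes were given as a list of symbols, and every row of the table with one of those symbols was taken: 55 of its 65601 events, of which 53 averaged 20 or more junction reads over the 4 libraries and were analysed. The working name of the group also speaks of uptake, but none of the 7 is an uptake receptor, so they are called cholesterol synthesis genes here. The samples were 293T cells, a human embryonic kidney line. One group of 2 libraries came from cells transfected at 70 nM with a gapmer antisense oligonucleotide (ASO) against Snord89, a small nucleolar RNA, and the other group of 2 from cells labelled as having had no treatment. No control ASO is named, and the labels of both groups carry the same transfection protocol, with a change of medium at 24 hours and RNA taken at 48 hours. Poly(A) RNA was sequenced as read pairs of 150 bases. The table names its sets only by order, and neither header nor labels tie one of them to the ASO, so directions are those of the first set relative to the second. The table records exon skipping alone, so cell identity and the depletion of the small nucleolar RNA were not checked. One library stood apart: library 2 of the second set lacked reads on 3280 events of the whole table, against 513 to 624 in each of the others.

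Cholesterol is built from acetyl-CoA through mevalonate, isoprenoid diphosphates, squalene and lanosterol. The enzymes are switched on together by the SREBP transcription factors, which are released from the endoplasmic reticulum when its membranes run low in sterol. A skipped coding exon removes amino acids from the enzyme where its length is a multiple of 3, and otherwise shifts the reading frame.

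Each event is made of 3 exons, the middle of which is either included or skipped, and junction reads are reads that cross from one exon to another. The inclusion level is the share of the included form among the included and skipped forms of that event, from 0 to 1. The reads are first divided by the length of each form. It is not a share of all transcripts of the gene, so the same exon can have different levels in different events. The sequences of 5 coding exons that were skipped in part of the reads, or that were skipped at different rates beside different partner exons, are shown first, because the inclusion results turn on them. Letters come from GENCODE release 29 transcripts, found by the spacing of the 3 exons; positions are those of the deposited table, on hg19 per the submitters' processing notes. In FDPS, capitals mark the part shared by a 72-nt form of the same exon; in the others they mark the last 3 bases, which border the donor splice site.
FDPS exon 10, chr1:155289585-155289719: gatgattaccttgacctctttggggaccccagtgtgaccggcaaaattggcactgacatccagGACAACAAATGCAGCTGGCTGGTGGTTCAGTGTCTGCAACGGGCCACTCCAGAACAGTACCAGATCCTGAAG
MVK exon 4, chr12:110017607-110017751: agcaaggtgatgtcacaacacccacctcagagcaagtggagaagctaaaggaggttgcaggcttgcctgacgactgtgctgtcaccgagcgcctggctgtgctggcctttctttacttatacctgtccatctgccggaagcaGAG
MVK exon 5, chr12:110019200-110019355: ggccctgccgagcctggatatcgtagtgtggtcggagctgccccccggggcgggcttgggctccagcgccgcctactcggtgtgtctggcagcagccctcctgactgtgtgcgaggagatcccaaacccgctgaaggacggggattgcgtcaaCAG
IDI1 exon 2, chr10:1089939-1090111: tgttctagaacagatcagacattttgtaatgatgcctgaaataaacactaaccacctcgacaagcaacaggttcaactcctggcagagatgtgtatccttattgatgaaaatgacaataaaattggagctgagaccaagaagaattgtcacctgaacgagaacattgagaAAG
LSS exon 18, chr21:47616116-47616181: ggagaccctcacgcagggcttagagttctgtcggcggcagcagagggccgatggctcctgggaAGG
The FDPS exon is 135 nt long, and the lower-case stretch of 63 nt before the shared part ends in ag, the letters of an acceptor site. Skipping FDPS exon 10 keeps the reading frame and would shorten the protein of its transcript from 419 to 374 residues. MVK exon 5 (156 nt) and LSS exon 18 (66 nt) also keep the frame, and their loss would take 52 and 22 residues from proteins of 396 and 732. MVK exon 4 (145 nt) and IDI1 exon 2 (173 nt) shift the frame, with a new stop after 83 and 53 residues.

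None of the 53 events was called different between the sets. An event counted as called where the authors' deposited table gave a false discovery rate (FDR) under 0.05 and the inclusion levels differed by 0.1 or more, and 2.71% of the 54503 tested events passed. In the rMATS results of the authors' deposited table, 6 of the 53 events had an unadjusted p under 0.05, against 14.3% of all tested events, and 1 had an FDR under 0.05, against 5.72%. A quasi-binomial model was also fitted to the whole table. Its error comes from how far libraries of a set differ, mostly as averaged over the events of the table rather than in the event itself. This model gave 0 member events with an adjusted p under 0.05 (1 event of the whole table, 0.00183%). At an unadjusted p under 0.05 it gave 3, against 3.96%. With limma, fitted to log2 ratios of inclusion over skipping reads, the counts were 0 adjusted and 0 unadjusted, against 0% and 4.87%. The median absolute difference was 0.00723 over the member events and 0.0114 over all tested events. The member events were also deeper, with a median of 500 reads per library against 190.

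**Figure D1:**
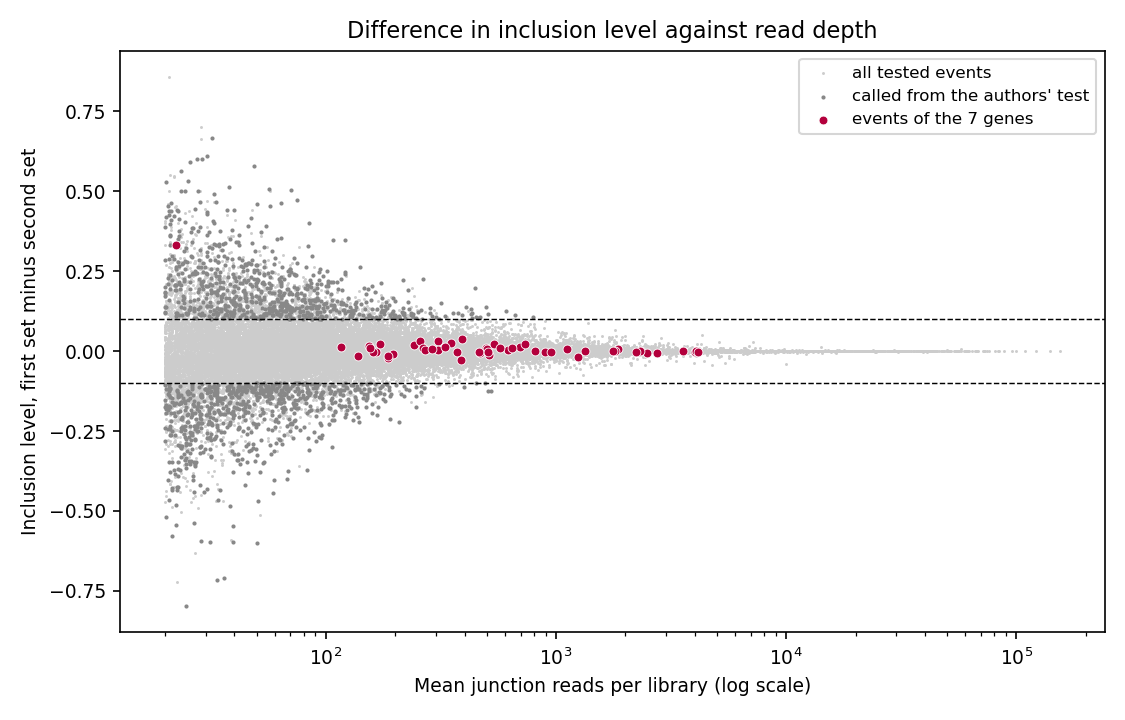
Difference in inclusion level, first set minus second set, against mean junction reads per library (log scale) for the 54503 tested events (grey), those called from the authors' test (dark grey) and the 53 events of the cholesterol genes (red); dashed lines mark 0.1 in either direction. One red point lies beyond the lines, at a difference of 0.331 and a mean of 22.25 reads.

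The event beyond 0.1 was an 81-nt exon of LSS at chr21:47615590-47615670 joined directly to the exon at 47625750, without exon 18. It was picked out after its values were seen. Inclusion was 0.907 and 1 in the first set, against 1 and 0.245 in the second, from 32, 23, 28 and 6 reads. At 0.1 or more it was 1 event of 53, against 7.13% of all tested events. The sets overlapped, and the low value came from library 2 of the second set, with 2 inclusion and 4 skipping reads. Without that library the difference was -0.047. The p-value in the authors' deposited table was 0.102.

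Of the 53 events, 35 (66.0%) had a mean inclusion level above 0.95, as did 66.1% of all tested events. Another 15 (28.3%) lay between 0.05 and 0.95, against 24.5%, and 3 lay below 0.05. The sets did not overlap in 17 of the 53 events, 32.1%, against 22.8% of all tested events, with the first set above in 10 and below in 7. Among the 15 intermediate events it was 5, 33.3%, against 33.4%. Of the 17 events, 12 were in FDPS, where events share exons and reads. Over the 7 genes, 21 events shared their skipping junction with another member event, so the 53 events are 38 exons and 42 skipping junctions.

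**Figure D2:**
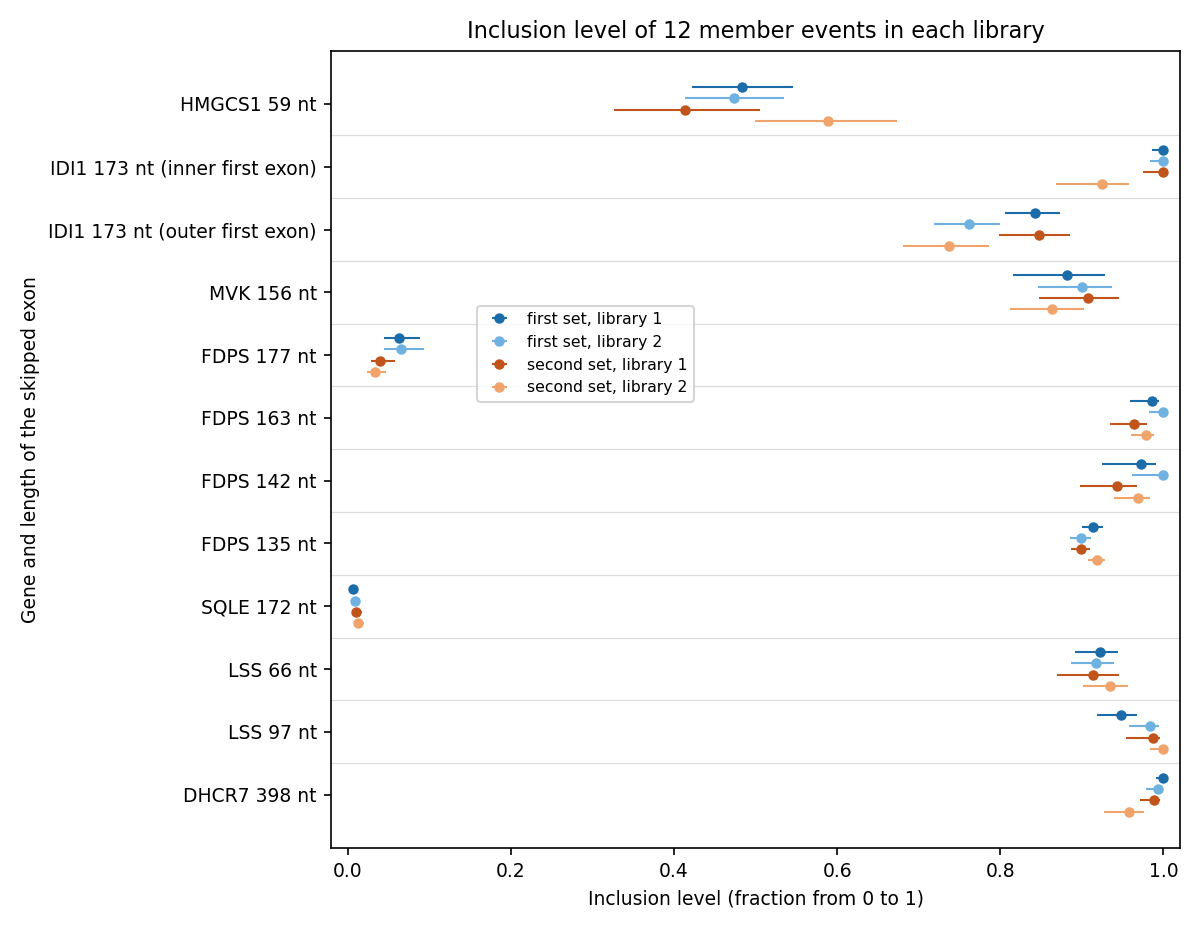
Inclusion level (fraction from 0 to 1) of 12 member events in each of the 4 libraries, with bars for the 95% Wilson interval of the reads; rows give the gene and the length of the skipped exon. The HMGCS1 exon lies between 0.413 and 0.589, and the other rows lie at 0.863 or above or at 0.065 or below, except IDI1 with its outer first exon.

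HMGCS1, the synthase that condenses acetyl-CoA with acetoacetyl-CoA to HMG-CoA, had the most evenly divided exon. This was exon 2 of 59 nt (chr5:43307868-43307926), outside the coding sequence in release 29. In the first set its inclusion level was 0.484 (95% Wilson interval 0.422 to 0.546) and 0.474 (0.413 to 0.535). In the second set it was 0.413 (0.327 to 0.505) and 0.589 (0.499 to 0.673). The levels of the second set lay on both sides of the first set, so the sets overlapped. The difference was -0.022, with a p-value of 0.726 in the authors' deposited table and a quasi-binomial adjusted p of 0.869. It was -0.110 without library 1 of the second set and 0.066 without library 2, so its sign rested on 1 library. Reads per library were 247 and 255 in the first set, against 111 and 129 in the second. The coding exon 4 of HMGCS1, 126 nt long, was included at 0.990 to 1 in every library.

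MVK, mevalonate kinase, adds the first phosphate to mevalonate. Its exon 5, shown above, was included at 0.882 (0.815 to 0.928) and 0.900 (0.846 to 0.937) in the first set when exon 4 was its neighbour. In the second set the levels were 0.908 (0.848 to 0.946) and 0.863 (0.812 to 0.903). The sets overlapped and all 4 intervals did too. The difference was 0.0056 (p = 0.672 in the authors' deposited table, quasi-binomial adjusted p = 0.907).

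A second skipping junction of MVK left out exons 4 and 5 together. It had 19 and 11 reads in the first set, against 22 and 11 in the second. Measured against it, exon 5 was included at 0.696 and 0.855 in the first set, against 0.699 and 0.884 in the second, and exon 4 at 0.799 and 0.881 against 0.819 and 0.889. In both sets library 2 was the higher one, and the sets overlapped. Exon 4 with exon 5 as its next exon was included at 0.982 to 1. Between exons 3 and 4, an extra 118-nt exon (chr12:110016970-110017087) was included at 0.012 and 0.015 in the first set, against 0 and 0.00764 in the second, on 0 to 4 inclusion reads per library. The other 4 MVK events were included at 0.942 to 1.

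IDI1, the isomerase that interconverts isopentenyl and dimethylallyl diphosphate, had 1 skipped exon in 2 events that differ in the first exon they start from. With the outer first exon, exon 2 was included at 0.843 (0.806 to 0.873) and 0.762 (0.719 to 0.800) in the first set. The second set gave 0.847 (0.799 to 0.886) and 0.737 (0.681 to 0.786). Library 1 was the higher in both sets, and the sets overlapped, with a difference of 0.010 (p = 0.780 in the authors' deposited table, quasi-binomial adjusted p = 0.904). With the inner first exon the same exon 2 had no skipping reads in 3 libraries. The level was 1 in those 3 and 0.925 (0.868 to 0.958) in library 2 of the second set, from 245 inclusion and 10 skipping reads. The p-value was 0.0122 and the FDR 0.126 in the authors' deposited table, with a quasi-binomial adjusted p of 0.826. Without library 2 of the second set the difference fell from 0.038 to 0.

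FDPS, which joins isoprene units to farnesyl diphosphate, held 21 of the 53 events and 8 of the 15 intermediate ones. Exon 10 was the deepest member event, with 3260 and 3725 reads in the first set, against 4721 and 4848 in the second. Its inclusion level was 0.914 (0.900 to 0.926) and 0.899 (0.885 to 0.911) in the first set. In the second set it was 0.899 (0.887 to 0.910) and 0.918 (0.907 to 0.928). The levels of the second set enclosed those of the first, with a difference of -0.00229, a p-value of 0.815 in the authors' deposited table and a quasi-binomial adjusted p of 0.908. The skipping junction itself carried 154, 208, 263 and 217 reads. The 72-nt form of this exon, scored against the same skipping reads, was at 0.766 and 0.748 in the first set, against 0.782 and 0.772 in the second. These 2 sets did not overlap, with a difference of -0.020 and a p-value of 0.377 in the authors' deposited table.

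Near its 5′ end, FDPS had an alternative exon 2 in a long form of 213 nt and a short form of 177 nt, which begin 36 nt apart. The inclusion level differed with the first exon and with the acceptor of the next exon. From the first exon that ends at 155278756, the 2 forms were included at 0.082 to 0.110 across the libraries when spliced to the 163-nt form of exon 3. From the first exon that ends at 155278867, inclusion was 0.241 to 0.331. Spliced to the 142-nt form of exon 3, whose acceptor lies 21 nt further on, the 177-nt form was lower from both first exons, at 0.034 to 0.065 and 0.064 to 0.106.

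The lowest of these was the 177-nt exon (chr1:155279580-155279756) between the first of these first exons and the 142-nt form. It was included at 0.063 (0.044 to 0.089) and 0.065 (0.045 to 0.094) in the first set. The second set had 0.040 (0.028 to 0.058) and 0.034 (0.024 to 0.047). The sets did not overlap, and the difference of 0.027 had p = 0.00841 and FDR 0.0981 in the authors' deposited table. The quasi-binomial unadjusted p was 0.0910 and the adjusted p 0.826. Without the correction for form lengths the difference was 0.049, over 1.5 times as large.

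Exon 3 of FDPS gave the other low p-values of the gene, in 2 events that share their skipping reads. These reads joined the first exon to an exon at 155287732 and left out both exon 3 and exon 4. They numbered 3 and 0 in the first set, against 10 and 8 in the second. The 163-nt form was included at 0.986 and 1 in the first set, against 0.964 and 0.979 in the second (p = 0.0123, FDR 0.127 in the authors' deposited table). For the 142-nt form the levels were 0.973 and 1 against 0.943 and 0.969 (p = 0.0109, FDR 0.116 in the authors' deposited table). Neither pair of sets overlapped, and the quasi-binomial adjusted p was 0.826 for each event. Exon 4, scored against the same skipping reads, was included at 0.997 and 1 in the first set, against 0.990 and 0.992 in the second. Its difference was 0.00709, and its p-value in the authors' deposited table was not under 0.05. In the opposite direction, both forms spliced from the same first exon to exon 4 had 18 and 8 skipping reads in the first set, against 5 and 6 in the second, with differences of -0.00645 and -0.00688.

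The 5 inner exons of FDPS from 155282046 to 155288719 were included at 0.978 to 1. Exon 6, 123 nt long, had 3524 and 3905 inclusion reads in the first set, against 4545 and 4289 in the second, with 1 skipping read in all, in library 2 of the second set. An extra exon of 118 nt after exon 3 (chr1:155280127-155280244) lay at the other end. It was included at 0.000516 and 0.00213 in the first set, against 0.00140 and 0.00847 in the second, on 2 to 34 inclusion reads. The sets overlapped; its quasi-binomial unadjusted p was 0.0359, its adjusted p 0.826, and the authors' deposited table gives p = 1. Its difference of -0.00361 was -7.74e-05 without library 2 of the second set, and the unadjusted p was then 0.935.

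SQLE, the squalene epoxidase and a rate-limiting step of the pathway, had no event between 0.05 and 0.95. Its rarest exon was one of 172 nt at chr8:126012142-126012313, not matched to release 29. It was included at 0.00701 (0.00431 to 0.0110) and 0.00957 (0.00612 to 0.0150) in the first set, against 0.00972 (0.00556 to 0.0170) and 0.0130 (0.00831 to 0.0200) in the second. Both second-set levels were above both first-set levels, and all 4 intervals overlapped (difference -0.003, p = 0.792 in the authors' deposited table). The other 4 SQLE events were included at 0.996 to 1.

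LSS, which cyclises oxidosqualene to lanosterol, held 13 events. Its exon 18 was included at 0.922 (0.892 to 0.944) and 0.917 (0.887 to 0.940) in the first set, against 0.914 (0.869 to 0.945) and 0.935 (0.902 to 0.957) in the second. The sets overlapped, with a difference of -0.00483 (p = 0.643 in the authors' deposited table, quasi-binomial adjusted p = 0.911). Exon 6 of LSS (97 nt, chr21:47639390-47639486), whose loss would shift the frame, was the 1 member event with an FDR under 0.05. Its FDR was 0.0188 and its difference -0.028 in the authors' deposited table, so it missed the size threshold. Inclusion was 0.948 (0.918 to 0.967) and 0.983 (0.958 to 0.994) in the first set, against 0.987 (0.954 to 0.996) and 1 (0.983 to 1) in the second. Skipping reads were 17 and 4 in the first set, against 2 and 0 in the second, so library 1 of the first set held most of them. Without that library the difference was -0.010, without library 2 of the first set it was -0.046, and the quasi-binomial adjusted p with all libraries was 0.826.

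DHCR7, which reduces 7-dehydrocholesterol in the last step to cholesterol, had 1 event, a coding exon of 398 nt at chr11:71146488-71146885. It was included at 1 (0.991 to 1) and 0.993 (0.979 to 0.998) in the first set, against 0.988 (0.971 to 0.996) and 0.958 (0.927 to 0.976) in the second. The sets did not overlap. Skipping reads were 0 and 3 in the first set, against 4 and 11 in the second, with a difference of 0.023, and the authors' deposited table lists p = 0.0183 and FDR 0.168. The quasi-binomial unadjusted p was 0.0475 and the adjusted p 0.826. The difference was 0.00790 if library 2 of the second set was dropped.

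Skipping of near-constitutive exons was low in every library. Over the 29 distinct skipping junctions of events above 0.95, the skipped form took 0.319% and 0.224% of reads in the first set, against 0.319% and 0.216% in the second. Skipping reads were found on 16 and 19 of the 29 junctions in the first set and on 19 and 12 in the second. Exons matched to a coding transcript with an annotated start numbered 19. Skipping would keep the frame in 10 of them, whose mean inclusion levels ran from 0.889 to 1 with a median of 0.995. It would bring an earlier stop in the other 9, with levels from 0.797 to 1 and a median of 0.990. Of the 38 exons, 15 (39.5%) had a length divisible by 3, against 40.3% of all tested exons.

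The junction reads also gave a level for each gene. For this, the reads of the deepest event of each gene were scaled by library and fitted with limma's voom over 9999 genes. RPM below are these scaled reads per 1000000 reads of the same events. The scaling factors split by set, at 1.172 and 1.079 in the first against 0.8564 and 0.9234 in the second. Differences between the sets are therefore relative to the other genes and depend on this scaling. Of the 7 genes, HMGCS1, IDI1 and DHCR7 were higher and FDPS lower in the first set at an adjusted p under 0.05, while MVK, SQLE and LSS did not pass. That is 4 of 7, in a table where 32.8% of all genes passed (17.8% with more reads in the first set and 15% with fewer). The libraries of the sets did not overlap in any of the 7, as in 68.2% of all genes. In a bulk library, fewer cells that express a gene and less RNA per cell cannot be told apart. The labels call the libraries biological replicates without naming separate cultures. These p-values therefore rest on the spread between 2 libraries a set, with each gene's error drawn towards that of all genes.

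HMGCS1 had 64.3 and 59.3 RPM in the first set, against 33.2 and 15.9 in the second. Both libraries of the first set were above both of the second, and the level in the first set was 2.72-fold that in the second (log2 difference 1.44, SE 0.22, limma adjusted p = 1.68e-05). The size rested on library 2 of the second set, without which the log2 difference was 0.90 (limma adjusted p = 0.000456). IDI1 had 62.4 and 57.3 RPM against 41.5 and 35.2. The IDI1 sets did not overlap either, and the log2 difference was 0.65 (SE 0.17, limma adjusted p = 0.00455).

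DHCR7 had 72.9 and 71.1 RPM in the first set, against 64.2 and 44.2 in the second, with no overlap. Its log2 difference of 0.44 (SE 0.17, limma adjusted p = 0.0438) fell to 0.17 (adjusted p = 0.539) without library 2 of the second set. It also missed the threshold with size factors from the median of ratios (limma adjusted p = 0.0535) and with reads summed over all events of each gene (0.187). FDPS went the other way, with 268 and 320 RPM in the first set, against 439 and 417 in the second. Its log2 difference was -0.55 (SE 0.14, limma adjusted p = 0.0042). All 21 FDPS events had fewer scaled reads in both libraries of the first set than in either of the second. These 21 events are 12 exons and 14 skipping junctions and share reads. The share of all tested events that separate in this way was not computed. Without library 1 of the first set, IDI1, FDPS and DHCR7 no longer passed (adjusted p = 0.107, 0.149 and 0.225), and of all genes 626 passed in place of 3277.

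MVK had 21.9 and 25.5 RPM against 28.3 and 39.0, a log2 difference of -0.50 (SE 0.21, limma adjusted p = 0.0614). The sets did not overlap, and 6 of its 9 events were lower in both libraries of the first set. MVK passed with size factors from the median of ratios (adjusted p = 0.0487), with reads summed over all events (0.0118) and without library 1 of the second set (-0.72, 0.00768). The MVK difference shrank to -0.27 (limma adjusted p = 0.407) without library 2 of the second set and was -0.38 (0.45) without library 1 of the first. LSS had 63.8 and 66.6 against 51.4 and 58.3, a log2 difference of 0.25 (SE 0.16, limma adjusted p = 0.232). SQLE was level at its deepest event, with 156 and 156 against 155 and 154 (log2 difference 0.01, SE 0.14, limma adjusted p = 0.953). Of single events, 9 of 13 in LSS and 4 of 5 in SQLE were higher in both libraries of the first set. In either gene 0 events were lower in both. For these counts and that of MVK, the share of all tested events that separate in this way was not computed. Events of a gene can share reads, so the counts are descriptions only.

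**Figure D3:**
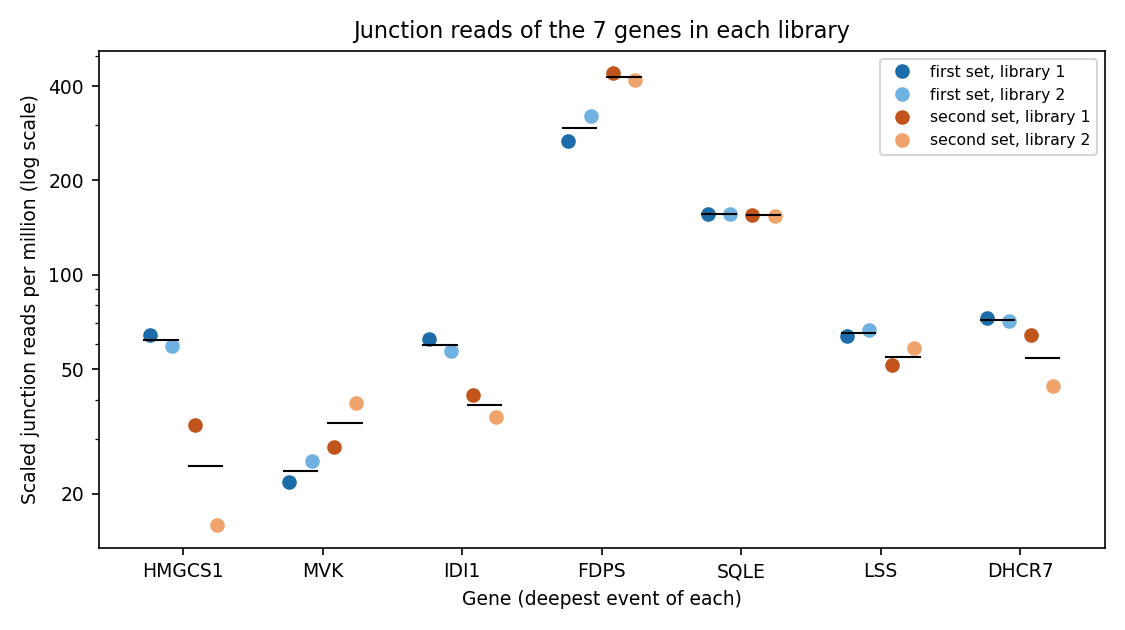
Scaled junction reads, in RPM on a log scale, of the deepest event of each of the 7 genes in the 4 libraries, with a black line at the mean of each set. The first set lies above the second in HMGCS1, IDI1, LSS and DHCR7 and below it in MVK and FDPS, and the 4 SQLE points lie between 154 and 156.

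The difference between the sets varied along some of the genes, a measure chosen after the values were seen. In SQLE, the log2 ratio of scaled reads, first set over second, was 0.52 at the exon nearest the 5′ end and -0.03 at the exon nearest the 3′ end. In LSS it was 0.96 at exon 3 and 0.10 at the 160-nt form of the last exon tested. The 170-nt form of that exon, exon 22, was at 0.11. FDPS, MVK and HMGCS1 kept 1 sign along the gene: from the 5′ to the 3′ end the ratio went from -0.74 to -0.64, from -0.40 to -0.51 and from 0.98 to 1.33. Between its ends, FDPS ranged from -1.11 to -0.22 over its events. Exon 6, nearly as deep as exon 10, was at -0.34 against -0.54, so the size depended on the event read. The same measure over all 8074 genes with events on at least 2 exons had a median of 0.29 at the 5′ end and -0.07 at the 3′ end, and 72.9% of genes had the higher ratio at the 5′ end. The part of this shift in the gene results was not tested. With the event nearest the 3′ end of each gene, HMGCS1 was at 1.49 and FDPS at -0.58 (limma adjusted p = 1e-05 and 0.00716). With the event nearest the 5′ end, rescaled over those events, the genes that passed were HMGCS1 (0.75), FDPS (-0.95) and LSS (0.75), at limma adjusted p = 0.0318, 0.00117 and 0.00599. DHCR7 with 1 event, and IDI1 with 1 exon, have no second position, so for them both settings differ from the first fit mainly in scaling. With the scaling of the 5′ events they did not pass (IDI1 0.43, limma adjusted p = 0.083, and DHCR7 0.22, 0.411), and with that of the 3′ events they did (0.70, 0.00289, and 0.50, 0.0258).

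**Figure D4:**
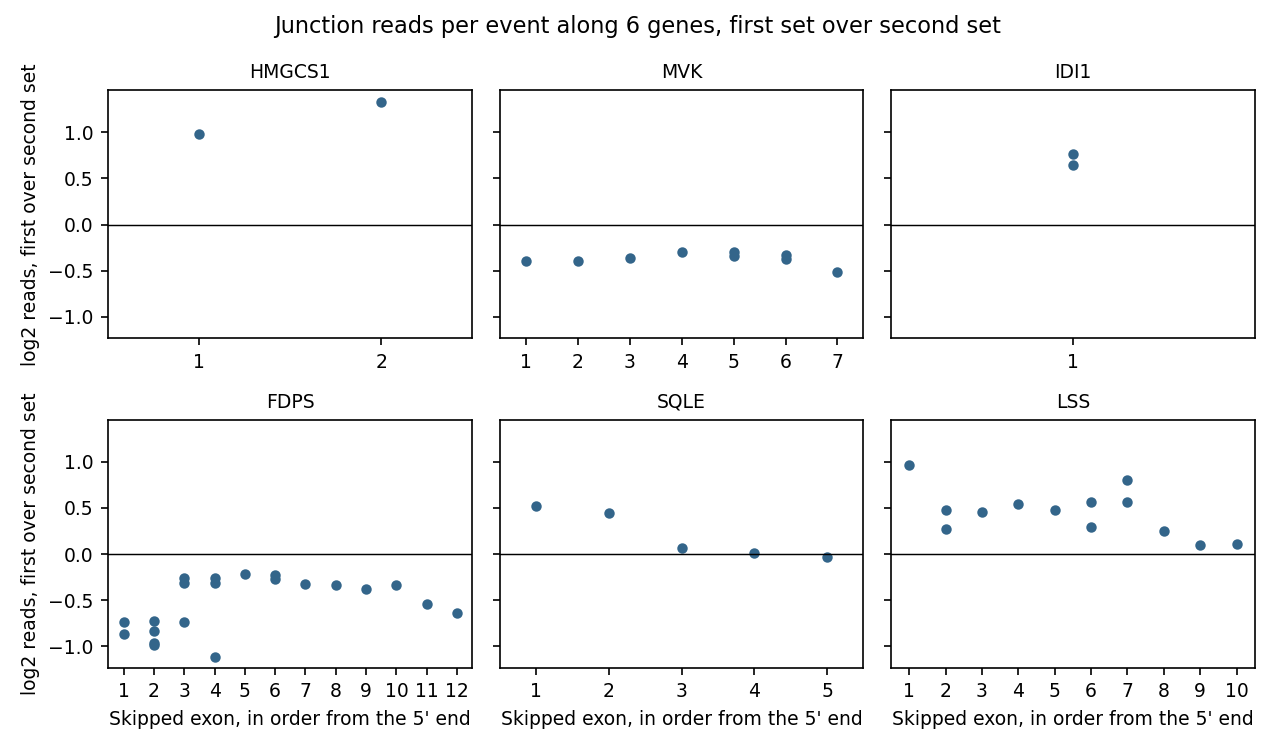
Log2 ratio of scaled junction reads, first set over second set, for each event (point) of 6 genes, with the skipped exons in order from the 5′ end; exons with several events have several points. SQLE falls from 0.52 to -0.03 and LSS from 0.96 to 0.10 and 0.11 at the forms of its last exon. All FDPS and MVK points lie below 0 and all HMGCS1 and IDI1 points above it.

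The rest of the pathway was counted from 5 lists of 38 genes, of which 32 had 210 tested events. From the authors' test 2 of the 210 were called, 0.952% against 2.71% of all tested events, both in NR1H3, a sterol-sensing nuclear receptor. The NR1H3 events are 2 forms of one exon that end at the same base, so they share reads. The 125-nt form (chr11:47282102-47282226) was included at 1 and 0.916 in the first set, against 0.658 and 0.769 in the second, with a gap of 0.244 between the sets; the authors' deposited table lists its FDR as 0.00207. Its quasi-binomial adjusted p was 0.826. No event was called among the 17 of the early mevalonate steps, the 55 of the squalene and sterol steps, the 73 of the SREBP control genes or the 51 of uptake and transport genes.

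By gene reads, 8 of the 32 other genes were higher and 6 lower in the first set at a limma adjusted p under 0.05, where 17.8% and 15% of all genes were, with a median log2 difference of -0.05 against 0.029 over all genes. The lists are small, and their counts are to be read against those shares. The genes named below were picked after their values were seen, and are given without values for left-out libraries. In the early mevalonate list 3 of 5 were lower and none higher. They were ACAT2 (log2 difference -0.59, adjusted p = 0.0024), which makes acetoacetyl-CoA, and PMVK (-0.57, 0.00496) and MVD (-0.56, 0.00606), which act on phosphorylated mevalonate. Among 9 genes of the squalene and sterol steps 4 were higher and 1 lower. Those higher included LBR (1.20), MSMO1 (0.55) and CYP51A1 (0.46), and TM7SF2 (-0.54) was lower, at limma adjusted p from 1.09e-06 to 0.0497. LBR and TM7SF2 are both sterol C14 reductases. Of 8 uptake and transport genes 2 were higher and 1 lower. LIPA, the lysosomal lipase, was higher (1.23, limma adjusted p = 3.1e-05) and SCARB1 lower (-0.39, 0.0451). Of 7 SREBP control genes, MBTPS2, a protease that releases SREBP, was higher (1.70, limma adjusted p = 0.000673) and SCAP, its escort, lower (-0.41, 0.0359). SOAT1, which esterifies cholesterol, was higher (1.11, limma adjusted p = 0.000388).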

How the data were processed

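One table of skipped exons was used. Reads were trimmed with cutadapt, aligned with STAR and placed on hg19, per the submitters' processing notes; the rMATS layout is per the file headers, and its version and annotation are not given in the sources used here. The deposited junction read counts are whole numbers, 2 libraries to a cell, with no normalization. The deposited p-value is the rMATS test, and its FDR is adjusted over the 65601 events. The deposited inclusion difference is a score from -1 to 1, and recomputed levels differed from it only by rounding (0.0005 per level). Libraries are numbered by their place in the cell, which pairs nothing across sets.

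Tests ran over the 54503 events with a mean of at least 20 reads. They used R 4.3.3 and limma 3.58.1: a binomial model with dispersion moderated by squeezeVar and never under 1 (prior from events with at least 5 reads of the rarer form), and a limma fit to log2 ratios with a pseudocount of 0.5. Gene reads were scaled by a trimmed mean of M values and fitted with voom, in place of a planned count model, the edgeR quasi-likelihood test. The deposited read columns hold pairs of values and were not declared as counts. Split by library the reads are whole numbers, so the data did not prevent a count model. All p-values were adjusted by Benjamini-Hochberg over all features tested. Intervals are 95% Wilson intervals of the reads and cover counting error only. Junction reads totalled 38613055 and 39012939 (first set) and 42868431 and 43929373 (second set). On 3280 events the second set's library 2 was without reads, against 513 to 624 elsewhere. Fits were tested on simulated data, where the log-ratio fit missed the changed events, so its count of 0 says little. GENCODE release 29 gave exon numbers and letters for 38 of the 53 events.

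Events named by rule were those called, those with a deposited p-value under 0.05 and, per gene, the deepest event between 0.05 and 0.95 or else the lowest, 12 in all. Other events given library by library were chosen after their values were seen or share an exon or junction with these. The members, lists and rules were chosen with earlier results of these data known. Alternatives were other thresholds, tests, scalings and each library left out. Values of some genes of the pathway lists are not reported here.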

Additional observations from a re-analysis of the deposited data

How the results depend on the processing

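The count of 0 called member events was also 0 at a mean of at least 10 or 50 reads, at a difference of at least 0.05, with the FDR over tested events only and with only the deepest event of each exon. The minimum of 50 reads and the restriction to the deepest events only remove events, so they could only give 0. Leaving out libraries, with the FDR as deposited, could also only give 0. The quasi-binomial count of 0 was 0 in all 7 alternatives, with a smallest adjusted p of 0.715 to 0.955. The count of 4 genes by junction reads ranged from 1 to 5 with each library left out, the lowest without library 1 of the first set, and was 3 or 4 otherwise. With size factors from the median of ratios the log2 difference of SQLE changed sign from 0.01 to -0.01. The events nearest either end of the gene were chosen after seeing the data. Of the inclusion differences of the 12 named events, 69 of the values under alternatives stayed within the spread of the libraries and 3 did not: IDI1 with its inner first exon without library 1 of the second set (0.075), and without correction for form lengths the 177-nt FDPS exon (0.049) and the SQLE exon (-0.00588). With 2 libraries a set, leaving 1 out cannot move a difference beyond this spread except by rounding. The values with a library left out are therefore no evidence of stability. The IDI1 value is such a rounding tie. Leaving out library 2 of the second set moved the difference as far, from 0.038 to 0, and was counted as within the spread. With a library left out, the lone library of its set was assumed to vary like the others. The planned edgeR quasi-likelihood test of the gene reads was not run. No paired analysis was possible because the table's columns carry no replicate numbers. Depth limits the near-constitutive exons, where a few skipping reads in 1 library set the difference.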
